A study of Mus musculus with 12 samples.

Results

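The vessels of the brain were followed through 9 genes of endothelium and of the blood-brain barrier, namely Cldn5, Ocln, Pecam1, Slc2a1, Abcb1a, Tek, Kdr, Flt1 and Vwf. They were taken by gene name from a table of 55385 mouse genes, and all 9 were among the 21393 genes that were tested because their FPKM averaged at least 0.1. FPKM counts fragments by transcript length and by the mapped fragments of the library, so values of different genes can be set side by side. The libraries were made from the whole brains of 12 wild-type male C57/BL6J mice, 8 weeks old at purchase and perfused with saline at collection, with 3 mice in each of 4 groups and 1 library per mouse. The C_W mice were unstressed controls given water, and the C_O mice were unstressed controls given krill oil, a marine oil rich in n-3 fatty acids bound to phospholipids. The MS_W and MS_O mice went through chronic unpredictable mild stress (CUMS), a model of depression that relies on mild stressors in random order, and were given water or krill oil, respectively. CUMS lasted 4 weeks, and krill oil was given into the stomach at 200 mg/kg per day for 5 weeks. Each library is named by its group and its mouse number, such as MS_W95.

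Endothelial cells line every vessel, and in the brain they form a barrier that solutes cross mainly by way of transporters. Tight junction proteins, among them claudin 5 and occludin, seal the gaps between neighbouring cells. A glucose carrier (Slc2a1) brings in the main fuel of neurons, and the efflux pump P-glycoprotein (Abcb1a) returns many lipophilic compounds to the blood. Receptors for vascular endothelial growth factor (Kdr, Flt1) and for angiopoietins (Tek) govern the growth and quiescence of vessels, while Pecam1 and Vwf serve adhesion and clotting. These cells make up a small part of the brain. In RNA of a whole brain, fewer endothelial cells and less RNA per endothelial cell cannot be told apart.

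Promoter windows of 250 bases before to 50 bases after the transcript start were taken from RefSeq (build GRCm38.p6) and were found for 7 of the 9 genes, with 2 overlapping windows for Ocln. Those of Cldn5 and Kdr are shown because theirs was the highest Pearson r of any pair in the 10 libraries without C_O72 and MS_W95, which stood apart, and 1 of Ocln because its level in that pair of libraries was furthest above the rest, a choice made after the values were seen. The Cldn5 window lies at chr16:18776597-18776896 on the plus strand, the Kdr window at chr5:75978406-75978705 on the minus strand and the Ocln window at chr13:100552669-100552968 on the minus strand. The other Ocln window, at chr13:100552449-100552748, is not shown. Capitals mark the letters GGAAG, a form of the site bound by ETS factors, and GGGCGG, the GC box bound by Sp factors. Each was searched on both strands, and the GGAA core of ETS sites with other letters after it was not searched.
Cldn5: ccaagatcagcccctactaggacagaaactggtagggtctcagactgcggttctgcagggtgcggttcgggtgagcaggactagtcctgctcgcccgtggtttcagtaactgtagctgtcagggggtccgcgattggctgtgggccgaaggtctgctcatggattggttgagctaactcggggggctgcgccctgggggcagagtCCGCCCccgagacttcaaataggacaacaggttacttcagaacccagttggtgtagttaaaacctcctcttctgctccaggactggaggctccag
Kdr: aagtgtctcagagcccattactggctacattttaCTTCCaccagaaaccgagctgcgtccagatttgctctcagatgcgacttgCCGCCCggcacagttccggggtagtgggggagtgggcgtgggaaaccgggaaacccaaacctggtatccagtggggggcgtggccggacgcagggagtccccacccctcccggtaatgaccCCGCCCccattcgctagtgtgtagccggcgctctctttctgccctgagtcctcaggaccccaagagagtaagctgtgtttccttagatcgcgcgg
Ocln: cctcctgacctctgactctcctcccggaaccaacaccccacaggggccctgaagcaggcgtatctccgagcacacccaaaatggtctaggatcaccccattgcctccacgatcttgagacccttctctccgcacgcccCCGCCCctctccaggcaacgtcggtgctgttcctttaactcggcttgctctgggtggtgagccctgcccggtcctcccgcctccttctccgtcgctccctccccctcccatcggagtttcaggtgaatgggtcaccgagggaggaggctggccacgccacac
The GC box was present 1 time in the Cldn5 window, 2 times in the Kdr window and 1 time in each Ocln window, and 35.7% of the 32851 windows in the table held it. The letters GGAAG were found 1 time in the Kdr window and 1 time in the Ocln window that is not shown. They were in neither the Cldn5 window nor the Ocln window shown, while 71.4% of all windows held them. The letters TATAAA, held by 13.6% of all windows, and the SOX core ACAAT, held by 31%, were in none of these 4 windows. Of the other windows, that of Flt1 held GGAAG 3 times and that of Abcb1a 2 times. Those of Slc2a1 and Flt1 held TATAAA 1 time each, and that of Tek held ACAAT 2 times. The Abcb1a window, at chr5:8566841-8567140, lies upstream of and outside the Abcb1a gene as measured, at 8660077-8748575 of that chromosome. A match gives only the letters and does not show that a factor was bound.

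The depth of the libraries ranged from 50912906 to 75678721 estimated counts. The 9 genes had between 324 (Ocln in MS_O78) and 10152 (Slc2a1 in C_O72) estimated counts per library. All 3 C_W libraries, C_O15 and MS_O13 had at least 69768244 counts, whereas the other 7 libraries, including all of MS_W, had at most 61608502. Therefore, depth and CUMS cannot be told apart among the mice given water. None of the 9 genes separated the 5 deeper from the 7 shallower libraries, against 4.31% of all tested genes. The libraries C_O72 and MS_W95 also stood apart. The summed FPKM of 10 hindbrain genes was 81.5 in C_O72 and 30.2 in MS_W95 and at most 0.0866 in the other 10 libraries. Results are hence given with and without them.

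The levels of the 9 genes spanned more than 1 order of magnitude. Slc2a1, on chromosome 4 (119108711-119137983, GRCm38, plus strand), was the most abundant, with a mean of 28.2 FPKM. It was followed by Cldn5 on chromosome 16 (18776847-18778262, plus strand) with 18.6 FPKM. Abcb1a came next with 4.48 FPKM and was above Flt1, with 3.24 FPKM, in 12 of 12 libraries. Pecam1 (2.28 FPKM) and Tek (2.17 FPKM) did not differ in order, since Pecam1 was the higher one in 6 of 12 libraries. Ocln (1.97 FPKM) was below Tek in 10 of 12 libraries, and the exceptions were C_O72 and MS_W95. Kdr (1.13 FPKM) and Vwf (0.735 FPKM) were the lowest, with Kdr above Vwf in 12 of 12 libraries. All are protein-coding genes. An antisense transcript, Gm12868, shares 105 exon bases with Slc2a1, and Gm42686, on the opposite strand, shares 553 exon bases with Abcb1a. Abcb1b, the close paralog of Abcb1a, was at 0.193 to 0.4998 FPKM, and how reads shared by the pair were divided was not stated.

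**Figure D1:**
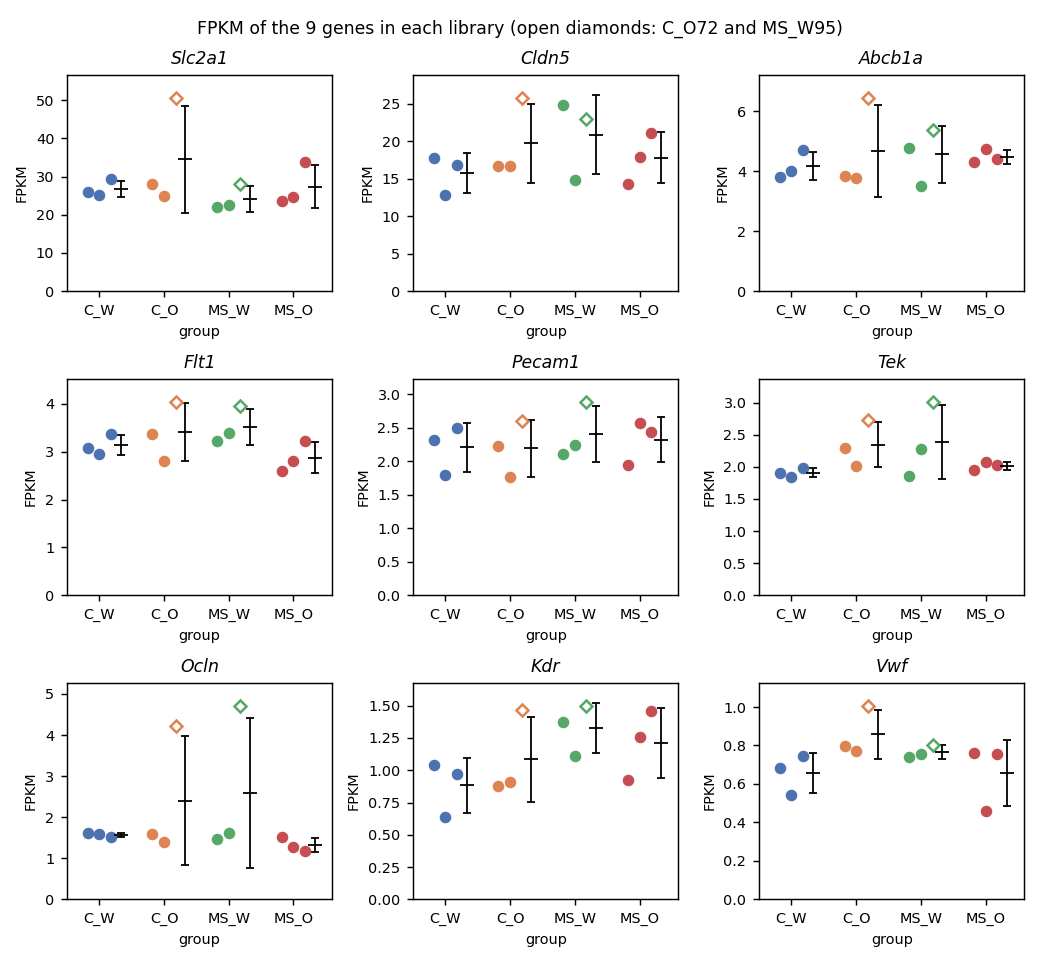
FPKM of the 9 genes (vertical axes, from 0) in the 3 libraries of each group (horizontal axes), with the group mean ± SD beside the points. Open diamonds are C_O72 and MS_W95, and Ocln reaches 4.22 and 4.70 FPKM there against at most 1.62 FPKM elsewhere.

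Among the tight junction genes, Ocln encodes occludin, a membrane protein of the junction strands. Its FPKM was 1.60, 1.59 and 1.52 in C_W, 1.59, 1.39 and 4.22 in C_O, 1.46, 1.62 and 4.70 in MS_W and 1.52, 1.28 and 1.18 in MS_O. The 2 highest values were those of C_O72 and MS_W95, at 2.86 and 3.18 times the mean of the other 10 libraries. The other 10 libraries varied little, with a mean of 1.48 ± 0.148 FPKM (SD, n = 10) and a coefficient of variation of 10.1%. The lowest values were those of MS_O46 and MS_O78, and every pair of groups overlapped.

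Cldn5 encodes claudin 5, the main claudin of brain endothelium. Its FPKM was 17.7, 12.8 and 16.9 in C_W, 16.7, 16.7 and 25.8 in C_O, 24.8, 14.9 and 23.0 in MS_W and 14.3, 17.9 and 21.1 in MS_O. The values of every pair of groups overlapped. MS_W31, which had none of the hindbrain signal, held the second highest Cldn5 value, whereas its Ocln value was 1.46 FPKM. The ratio of Ocln to Cldn5 within a library was 0.0560 to 0.125 in the 10 libraries and 0.164 and 0.205 in C_O72 and MS_W95.

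Of the transporters, Slc2a1 was 26.0, 25.2 and 29.2 FPKM in C_W, 28.0, 24.8 and 50.6 FPKM in C_O, 22.0, 22.4 and 28.0 FPKM in MS_W and 23.6, 24.6 and 33.8 FPKM in MS_O. C_O72 was at 1.95 times the mean of the 10 libraries, whereas MS_W95 was at only 1.08 times. Thus, the other library of the pair lay within the range of the rest for this gene. Abcb1a ranged from 3.52 FPKM in MS_W75 to 6.45 FPKM in C_O72, with MS_W95 second at 5.40 FPKM. The remaining 10 values lay between 3.52 and 4.78 FPKM, and the groups overlapped throughout.

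Among the receptors, Kdr encodes the main signaling receptor for vascular endothelial growth factor. It was at 1.04, 0.640 and 0.968 FPKM in C_W, 0.879, 0.910 and 1.46 FPKM in C_O, 1.37, 1.11 and 1.496 FPKM in MS_W and 0.924, 1.26 and 1.46 FPKM in MS_O. Each MS_W value was above each C_W value, and the other pairs of groups overlapped. Flt1 encodes a receptor that binds the same ligand and, in its soluble form, holds it back. It was at 3.08, 2.96 and 3.38 FPKM in C_W, 3.38, 2.81 and 4.04 FPKM in C_O, 3.23, 3.39 and 3.95 FPKM in MS_W and 2.59, 2.81 and 3.23 FPKM in MS_O. The MS_O mice included the lowest 2 of the 12 values. The ratio of Flt1 to Kdr ranged from 2.21 in MS_O78 to 4.63 in C_W64.

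Tek, the angiopoietin receptor, was at 1.91, 1.84 and 1.98 FPKM in C_W, 2.30, 2.02 and 2.72 FPKM in C_O, 1.87, 2.28 and 3.01 FPKM in MS_W and 1.95, 2.07 and 2.03 FPKM in MS_O. The C_W and MS_O values were tight (SD 0.0682 and 0.0655 FPKM, n = 3 each), and all C_O values were above all C_W values. Vwf, which encodes the clotting factor that endothelium stores and secretes, was at 0.685, 0.542 and 0.745 FPKM in C_W, 0.798, 0.773 and 1.00 FPKM in C_O, 0.738, 0.756 and 0.804 FPKM in MS_W and 0.759, 0.457 and 0.756 FPKM in MS_O. All C_O values were above those of C_W and of MS_O. Pecam1, an adhesion molecule of endothelial junctions, ranged from 1.76 FPKM in C_O30 to 2.89 FPKM in MS_W95, and its groups overlapped throughout.

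**Figure D2:**
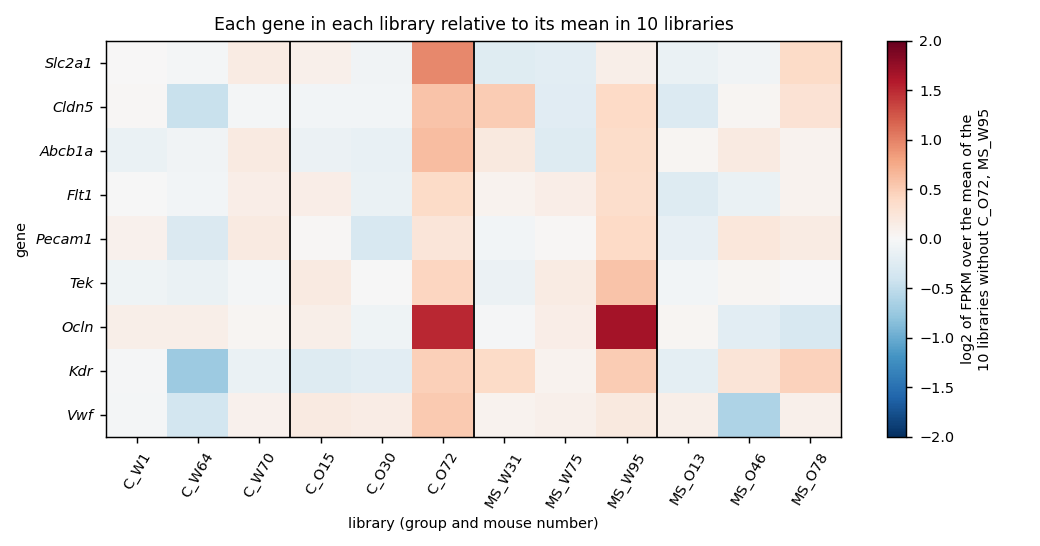
Colour gives the log2 ratio of the FPKM of each gene (rows) in each library (columns, by group) to its mean in the 10 libraries without C_O72 and MS_W95. The columns of C_O72 and MS_W95 are above 0 for all 9 genes, with ratios of 2.86 and 3.18 for Ocln.

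Considering CUMS in the mice given water, none of the 9 genes passed an adjusted p of 0.05 (limma, Benjamini-Hochberg over all tested genes), and 0.00467% of all tested genes did. At an unadjusted p under 0.05, limma, edgeR and DESeq2 each called 0 of 9, while they called 10.5% of all tested genes (limma), 9.37% (edgeR) and 11.6% (DESeq2). Kdr was closest, with 1.33 ± 0.196 FPKM in MS_W and 0.884 ± 0.215 FPKM in C_W (SD, n = 3 each). Its log2 difference, taken throughout on log2(FPKM + 1), was 0.31 (SE 0.15, 95% interval -0.021 to 0.64, limma adjusted p = 0.491). It was 0.26 (SE 0.14) in the 10 libraries. Without C_O72 alone, Kdr had an unadjusted p under 0.05 (limma adjusted p = 0.293). C_O72 is in neither group, so leaving it out changed only the estimate of the spread. Tek without MS_W31 and Cldn5 without MS_W75 also had such a p in limma. The smallest limma adjusted p of the 9 genes was 0.474 and 0.470 there. Kdr was also the only 1 of the 9 genes whose groups did not overlap, and 16.3% of all tested genes were likewise higher in every MS_W library. Cldn5 was 20.9 ± 5.27 FPKM in MS_W against 15.8 ± 2.65 FPKM in C_W (SD, n = 3 each), a log2 difference of 0.36 (SE 0.23, limma adjusted p = 0.585). The Ocln difference of 0.37 (SE 0.34) was -0.020 (SE 0.10) without C_O72 and MS_W95. Slc2a1 was the 1 gene with a negative difference, of -0.15 (SE 0.24). With the depth class (deeper or shallower) as a term of the fit, the difference was 0.058 for Kdr, 0.0071 for Cldn5 and -0.46 for Slc2a1 (limma adjusted p = 1 each). Over the 9 genes the median log2 difference was 0.13, with 8 of 9 above 0, and it was 0.062 over all tested genes. Without C_O72 and MS_W95, or without MS_W95 alone, the median was 0.058 with 5 of 9 above 0, and with the depth class as a term it was 0.044 with 6 of 9 above 0.

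For CUMS in the mice given krill oil, 0 of 9 genes passed the adjusted p (limma), and 0.00467% of all tested genes did. None had an unadjusted p under 0.05 in limma, against 8.88% of all tested genes, whereas edgeR and DESeq2 each gave such a p for Flt1, and for 8.54% and 10.5% of all tested genes. With libraries centred on their median, limma gave such a p for Vwf and Flt1, with a smallest adjusted p of 0.514 among the 9. Flt1 was 2.88 ± 0.326 FPKM in MS_O and 3.41 ± 0.613 FPKM in C_O (SD, n = 3 each), with a log2 difference of -0.18 (SE 0.13, limma adjusted p = 0.698), which was -0.080 (SE 0.11) without C_O72 and MS_W95. Vwf was 0.657 ± 0.174 FPKM against 0.858 ± 0.127 FPKM (SD, n = 3 each), a log2 difference of -0.17 (SE 0.10, limma adjusted p = 0.653), and -0.11 (SE 0.11) in the 10 libraries. It was the 1 gene of the 9 without overlap of the groups, and 3.29% of all tested genes were lower in every MS_O library. The median log2 difference over the 9 genes was -0.14, against 0.033 over all tested genes, but it was 0.033 without C_O72 and MS_W95.

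As for krill oil in the unstressed mice, 0 of 9 genes passed the adjusted p (limma), as did 0% of all tested genes, and 0 of 9 had an unadjusted p under 0.05 in limma, edgeR or DESeq2, against 3.55%, 4.47% and 5.82% of all tested genes. Vwf was 0.858 ± 0.127 FPKM in C_O and 0.657 ± 0.104 FPKM in C_W (SD, n = 3 each), a log2 difference of 0.17 (SE 0.10, limma adjusted p = 0.908). The Tek difference was 0.20 (SE 0.13, limma adjusted p = 0.908). In the 10 libraries these were 0.11 (SE 0.11) for Vwf and 0.12 (SE 0.10) for Tek. Both genes were higher in every C_O library than in every C_W library, which was so for 4.08% of all tested genes. The largest difference was that of Ocln, at 0.31 (SE 0.34), which was -0.046 (SE 0.10) in the 10 libraries. Slc2a1 differed by 0.28 (SE 0.24) in all libraries and by -0.020 (SE 0.15) in the 10. The median over the 9 genes was 0.17 with C_O72 and MS_W95, -0.017 without them and 0.051 with the depth class as a term, and over all tested genes it was 0.0017.

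With krill oil under CUMS, the comparison that asks whether the oil acts in stressed mice, 0 of 9 genes passed the adjusted p (limma), and 0.00467% of all tested genes did. No gene of the 9 had an unadjusted p under 0.05 in limma, edgeR or DESeq2, against 6.09%, 5.65% and 7.25% of all tested genes. The groups overlapped for all 9 genes, while they did not for 12.3% of all tested genes. The Flt1 difference was -0.22 (SE 0.13, limma adjusted p = 0.833), from 3.52 ± 0.381 FPKM in MS_W to 2.88 ± 0.326 FPKM in MS_O (SD, n = 3 each). Ocln differed by -0.51 (SE 0.34), and by -0.12 (SE 0.10) in the 10 libraries. The median of -0.097 over the 9 genes, against -0.016 over all tested genes, was -0.023 without C_O72 and MS_W95.

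The interaction of CUMS and krill oil, that is, the CUMS difference under oil minus that under water, was called by limma at an adjusted p of 0.05 for 0 of 9 genes and for 0% of all tested genes. At an unadjusted p under 0.05, limma called 0 of 9 genes and 7.23% of all tested genes, edgeR 0 of 9 and 8.1%, and DESeq2 2 of 9 (Tek and Ocln) and 9.98%. The estimate was below 0 for 9 of 9 genes, with a median of -0.26 against -0.017 for all tested genes. C_O72 and MS_W95 enter this difference with the same sign. In the 10 libraries the median was -0.079, and the estimates of Slc2a1, Abcb1a and Pecam1 were 0.29, 0.20 and 0.16. Ocln changed the most, from -0.82 (SE 0.48) to -0.079 (SE 0.14). The comparisons share groups, so their signs are not independent.

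**Figure D3:**
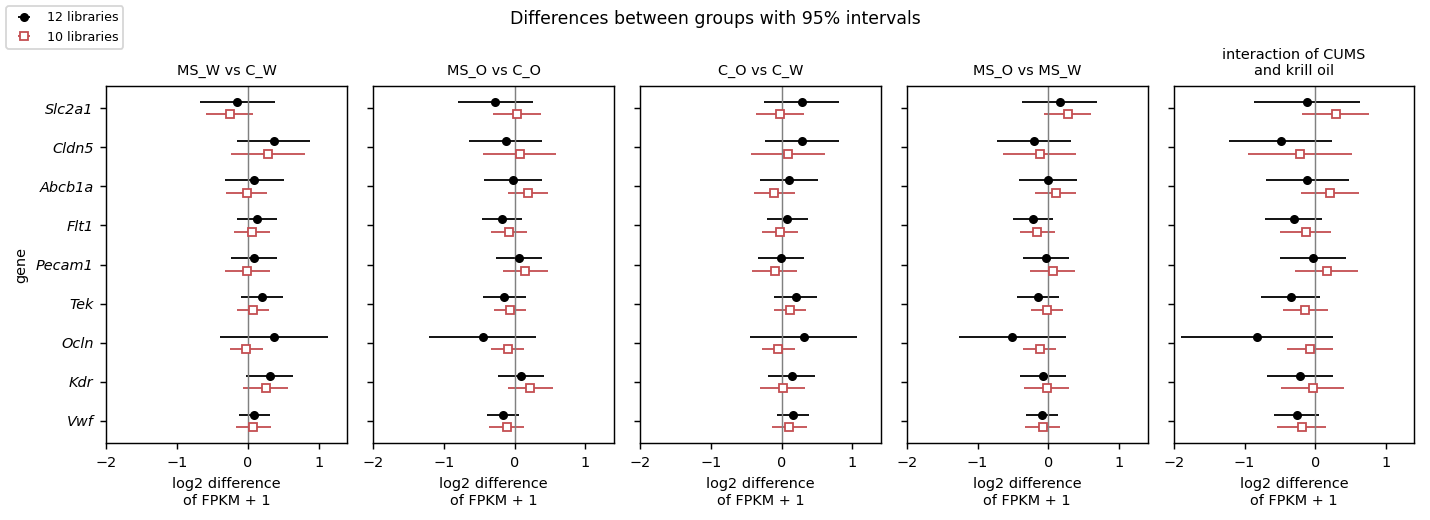
Log2 differences of FPKM + 1 (horizontal axes) with 95% intervals from limma for the 9 genes in the 4 comparisons and the interaction, with all 12 libraries (filled) and with the 10 libraries without C_O72 and MS_W95 (open). All intervals include 0, and those of Ocln are the widest with 12 libraries.

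The intervals bound what could have been missed on the scale of log2(FPKM + 1). In MS_W against C_W they hold CUMS and depth together. For the 8 genes other than Ocln, the 95% intervals of the 4 pairwise comparisons reached from -0.80 to 0.88, so that a doubling of FPKM + 1 lay outside all of them. A doubling or halving of FPKM itself is a smaller step on this scale for low genes such as Kdr and Vwf. The intervals of these low genes did not exclude such a change in every comparison. The Ocln intervals reached beyond 1 on the log2 scale in all 4 comparisons. In the 10 libraries the intervals of all 9 genes lay within 1 on the log2 scale in every comparison.

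In C_O72 and MS_W95, the 9 genes were high, and markers of other cells were high or low. C_O72 was among the 2 highest libraries for 9 of 9 genes, and MS_W95 for 7 of 9. Both libraries were above all of the other 10 for 7 of the 9 genes, all but Cldn5 and Slc2a1, and this was so for 16.3% of all tested genes. In the same libraries, the astrocyte list (12 genes) summed to 1250 and 1167 FPKM, against 568 to 704 FPKM in the other 10. The oligodendrocyte list (10 genes) summed to 1581 and 876 FPKM, against 340 to 670 FPKM. The choroid plexus list (10 genes) reached 4864 and 1830 FPKM, against 2.71 to 847 FPKM. The cortex list (10 genes) was at 137 and 72.4 FPKM, against 103 to 274 FPKM. The microglia list (10 genes) summed to 158 and 105 FPKM, against 138 to 196 FPKM, and 5 of its 10 genes were below all of the other 10 libraries in both, as were 11.7% of all tested genes. The neuron list (10 genes) was at 0.99 and 0.78 times its mean in the 10 libraries, and the fibroblast and meninges list (12 genes) summed to 119 and 44.4 FPKM, against 27.9 to 79.9 FPKM. Defining hindbrain genes such as Hoxa5 were at 5.36 and 2.39 FPKM and were listed at 0.0001 in each of the other libraries, where 0.0001 stands for no estimate. The part of these cells and regions in the values of the 9 genes was not tested.

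**Figure D4:**
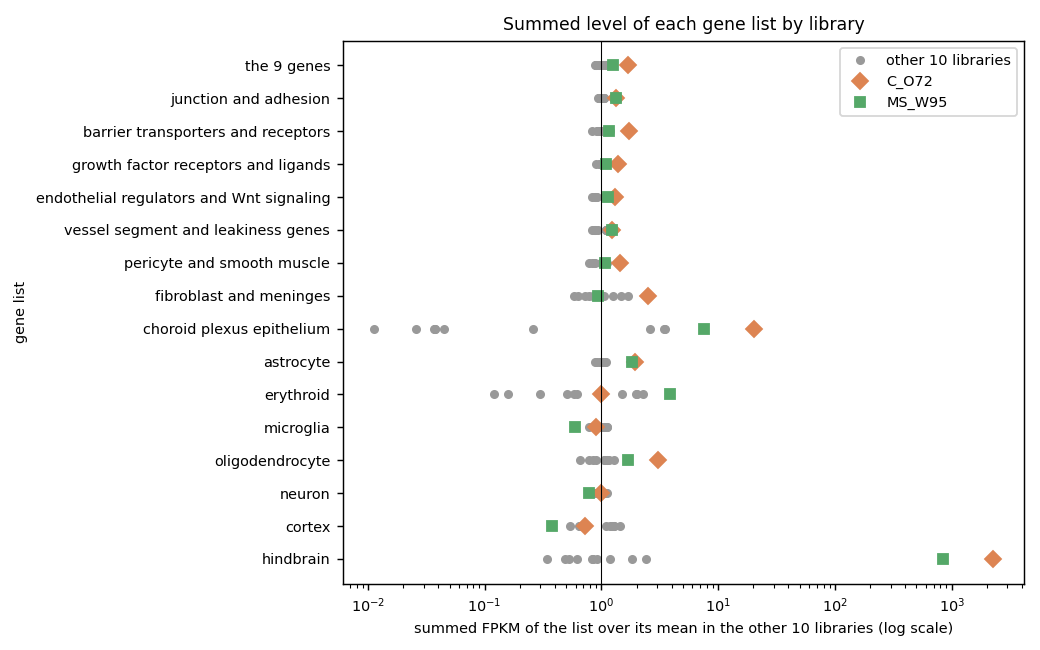
Summed FPKM of each gene list in each library, divided by its mean in the 10 libraries without C_O72 and MS_W95 (log scale). The 9 genes are at 1.70 times in C_O72 and 1.26 times in MS_W95, while the hindbrain list is at 2280 and 845 times.

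The counts of such genes differed between the vessel lists, and that difference was not tested. The share of all tested genes above the other 10 libraries in both was 16.3%, as given above. Of the junction and adhesion list, 7 of 14 genes (50%) were above all of the other 10 libraries in both, among them Cdh5, the cadherin of endothelial junctions, and Cgnl1, a junction plaque protein. Cgnl1, singled out after its values were seen, was at 11.4 and 7.99 FPKM against 1.34 to 3.09 FPKM, a pattern like that of Ocln. Of the barrier transporters and receptors, 3 of 16 (18.8%) were (Slc7a5 and Slc3a2, which form an amino acid exchanger, and Slc16a1, a monocarboxylate carrier). Of the endothelial regulators and Wnt signaling genes, 2 of 19 (10.5%) were (Fzd4, the receptor for norrin and Wnt ligands, and its partner Tspan12). The numbers were 5 of 15 (33.3%) for the growth factor receptors and ligands, 4 of 17 (23.5%) for the vessel segment and leakiness genes and 2 of 15 (13.3%) for the pericyte and smooth muscle genes. The shares of the barrier transporters, the endothelial regulators and the pericyte genes were thus near or below that of all tested genes.

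The 9 genes ran together over the 12 libraries and much less so over the 10. Pearson r on log2(FPKM + 1) was over 0.5 for 28 of 36 pairs with 12 libraries and for 3 of 36 pairs with 10, and the median r was 0.58 and 0.18. With 12 libraries the highest r were those of Ocln with Tek (r = 0.89) and Cldn5 with Kdr (r = 0.88). The 3 pairs with 10 libraries were Cldn5 with Kdr (r = 0.84), Pecam1 with Kdr (r = 0.62) and Cldn5 with Abcb1a (r = 0.52). The Cldn5 to Kdr ratio stayed between 13.4 and 20.0 in all 12 libraries while Cldn5 itself varied 2.02-fold. That was not particular to this pair, since Pecam1 to Tek ranged from 0.87 to 1.26 and Flt1 to Pecam1 from 1.09 to 1.64. In the 10 libraries, Ocln had r = -0.66 with Kdr, -0.53 with Cldn5, -0.52 with Abcb1a, -0.44 with Slc2a1 and -0.33 with Pecam1, but 0.20 with Flt1, 0.19 with Vwf and 0.060 with Tek. Running together over the 12 libraries was not particular to the 9 genes. Each of them, set against the mean pattern of the rest, had a median r of 0.747. Against the pattern of the 9, it was 0.919 for hindbrain, 0.838 for astrocyte, 0.836 for oligodendrocyte and 0.781 for choroid plexus genes. It was -0.531 for microglia and -0.722 for cortex genes. These are descriptions, with no test, over genes measured in the same libraries, which differ in depth and in the hindbrain genes. Among the 13612 genes that averaged at least 1 FPKM, those most like the mean pattern of the 9 were Zcchc24 (r = 0.97 over 12 libraries), Slc39a13 (0.97), Selenbp1 (0.97), Itgb5 (0.97) and Slc7a10 (0.97). In the 10 libraries their r was 0.80, 0.82, 0.84, 0.85 and 0.79.

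Among further vascular genes in 5 lists, none passed the adjusted p in any of the 5 comparisons (limma, all 12 libraries). In MS_W against C_W, the number with an unadjusted p under 0.05 was 1 of 14 for junction and adhesion (lower), 0 of 16 for barrier transporters and receptors, 2 of 15 for growth factor receptors and ligands (1 higher, 1 lower), 2 of 19 for endothelial regulators and Wnt signaling (higher) and 2 of 17 tested for vessel segment and leakiness genes (higher), against 10.5% of all tested genes. These counts of 0 to 2 genes a list were near or below that share. The median log2 differences of these lists were 0.25, 0.044, 0.093, 0.13 and 0.087, against 0.062 over all tested genes. In MS_O against C_O, 1 of 14, 3 of 16, 1 of 15, 3 of 19 and 1 of 17 genes of these lists had such a p, against 8.88% of all tested genes. The counts of 3 were above that share and those of 1 below it, and this was not tested. For C_O against C_W the numbers were 1, 1, 0, 1 and 0, against 3.55%, and for MS_O against MS_W they were 0, 1, 1, 1 and 0, against 6.09%.

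Cd34, a sialomucin on the luminal face of endothelium, had the smallest p of these lists in MS_W against C_W. It was at 13.3, 15.3 and 15.6 FPKM in C_W, 14.9, 6.01 and 2.81 FPKM in C_O, 3.70, 3.77 and 2.70 FPKM in MS_W and 11.2, 2.99 and 4.25 FPKM in MS_O. All MS_W values were below all C_W values, which the naming rule required. The log2 difference was -1.85 (SE 0.49, limma adjusted p = 0.281). The Cd34 level also split by depth, with 11.2 to 15.6 FPKM in the 5 deeper libraries and 2.70 to 6.01 FPKM in the 7 shallower ones, across the groups. With the depth class as a term of the fit, the difference was -0.33 (SE 0.32, limma adjusted p = 1). Cd34 passed with DESeq2 (adjusted p = 0.0189) and in the limma fit of those groups alone (adjusted p = 0.0105), but in 0 of the other settings, where the adjusted p ran up to 1.

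Wnt7a, a Wnt ligand that brain endothelium needs to form the barrier, had the opposite pattern. It was at 3.65, 3.55 and 3.02 FPKM in C_W, 2.67, 4.56 and 7.11 FPKM in C_O, 6.46, 7.34 and 10.7 FPKM in MS_W and 3.37, 8.69 and 8.90 FPKM in MS_O. Its log2 difference in MS_W against C_W was 1.03 (SE 0.35, limma adjusted p = 0.358). The 5 deeper libraries had 2.67 to 3.65 FPKM and the 7 shallower 4.56 to 10.7 FPKM, and with the depth class as a term the difference was 0.012 (SE 0.28). Nrp2, a co-receptor of semaphorins and of vascular endothelial growth factors, likewise was at 1.299 to 2.08 FPKM in the deeper and 2.32 to 6.28 FPKM in the shallower libraries. Its difference of 1.00 (SE 0.40, limma adjusted p = 0.432) was 0.051 (SE 0.44) with that term. Ackr1, a chemokine-binding receptor of venules, was at 20.5 to 28.3 FPKM in the deeper and 28.8 to 49.5 FPKM in the shallower libraries, and its difference went from 0.75 (SE 0.23, limma adjusted p = 0.326) to 0.30 (SE 0.28). The part of depth in these differences was not tested beyond this term.

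**Figure D5:**
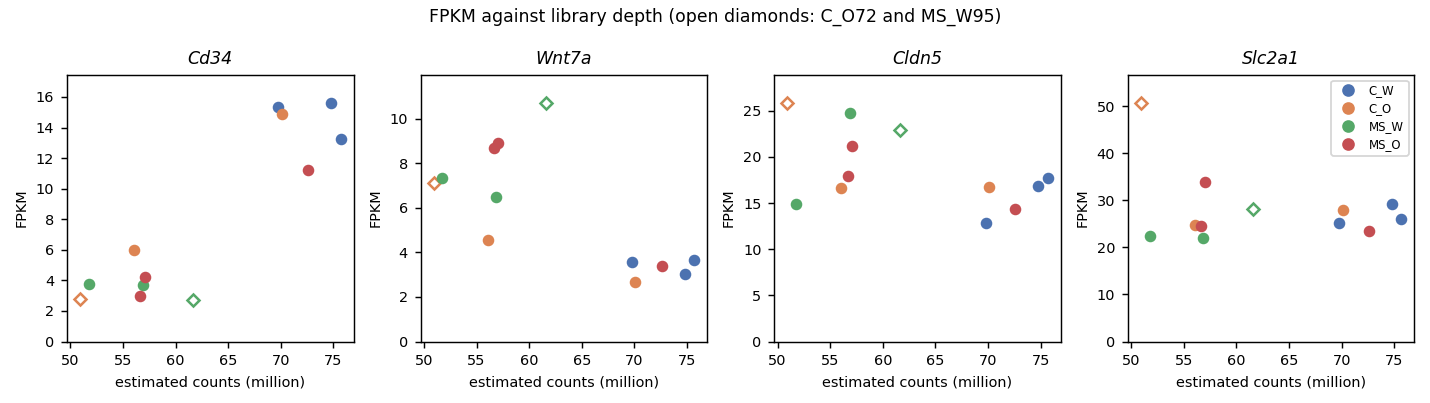
FPKM of Cd34, Wnt7a, Cldn5 and Slc2a1 (vertical axes) against the estimated counts of each library (horizontal axes), coloured by group, with C_O72 and MS_W95 as open diamonds. Cd34 and Wnt7a fall into separate ranges in the 5 deeper and the 7 shallower libraries, whereas the ranges of Cldn5 and Slc2a1 overlap.

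In MS_O against C_O, the named genes of these lists were Slc6a6, the taurine carrier, with 20.2 FPKM in MS_O and 13.5 FPKM in C_O, and, lower in MS_O, Slc7a1, Egfl7, Sox18 and Ly6c1. Sox18, an endothelial transcription factor, was at 2.42 ± 0.325 FPKM in MS_O and 3.46 ± 0.183 FPKM in C_O (SD, n = 3 each), a log2 difference of -0.39 (SE 0.16, limma adjusted p = 0.546). In C_O against C_W, the named genes were Lsr, a protein of tricellular junctions, Bsg, a chaperone of monocarboxylate carriers, and Klf2, a factor that responds to blood flow. They were higher in every C_O library, with adjusted p = 0.908 each (limma). The naming rule required this order, which held for 4.08% of all tested genes. The highest C_O value of all 3 was that of C_O72, at 4.49, 334 and 9.11 FPKM. In MS_O against MS_W, Robo4, a guidance receptor of endothelium, was at 1.01, 0.869 and 1.10 FPKM in MS_O and 0.666, 0.764 and 0.696 FPKM in MS_W.

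Jam2 and Cldn12 were the named junction genes of high level. Jam2, a junctional adhesion molecule, ranged from 6.24 FPKM in C_O15 to 17.2 FPKM in MS_O78. Cldn12, a further claudin, was at 11.3 ± 2.75 FPKM in MS_W and 7.38 ± 0.886 FPKM in C_W (SD, n = 3 each), a log2 difference of 0.53 (SE 0.26, limma adjusted p = 0.497). Vegfa, a ligand of Kdr and Flt1, was at 11.2 ± 1.38 FPKM in MS_W and 10.05 ± 0.680 FPKM in C_W (SD, n = 3 each, limma adjusted p = 0.659). Vegfb, a ligand of Flt1, was at 36.5 ± 3.63 FPKM and 34.1 ± 2.42 FPKM in the same groups (SD, n = 3 each, limma adjusted p = 0.841). Nr2f2, a transcription factor of veins, was at 3.30, 1.47 and 1.55 FPKM in MS_W and 0.853, 0.566 and 0.702 FPKM in C_W, with a log2 difference of 0.82 (SE 0.29, limma adjusted p = 0.367). Tspan12, a partner of the Wnt receptor Fzd4, was at 4.47, 4.59 and 4.59 FPKM in MS_W and 3.603, 3.44 and 3.36 FPKM in C_W (log2 difference 0.31, SE 0.13, limma adjusted p = 0.460). Nrp1, the other neuropilin, was at 1.05, 0.900 and 0.543 FPKM in MS_W and 1.06, 1.21 and 1.48 FPKM in C_W (log2 difference -0.30, SE 0.13, limma adjusted p = 0.460). The groups did not overlap for these 3 genes, nor for Cldn12 and Jam2. No overlap was a condition for naming these 3 genes. Of all tested genes, 16.3% were higher in every MS_W library, as were all of these genes but Nrp1. Nr2f2 was at 0.551 to 0.853 FPKM in the deeper and 0.818 to 3.30 FPKM in the shallower libraries. Tspan12 was at 3.36 to 3.603 FPKM and 3.51 to 4.90 FPKM, respectively. Sele, Selp and Gja5 of the vessel segment list averaged under 0.1 FPKM and were not tested.

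Markers of other cells were set beside the 9 genes in the same fit, and none passed the adjusted p in any of the 5 comparisons (limma, 12 libraries). In MS_W against C_W, where the median log2 difference of the 9 genes was 0.13, that of pericyte and smooth muscle genes was 0.12, of fibroblast and meninges genes 0.42, of choroid plexus genes 0.37, of astrocyte genes 0.39 and of oligodendrocyte genes 0.23. The medians were -1.63 for erythroid genes, -0.0675 for microglia genes, -0.16 for neuron genes, -1.29 for cortex genes and 0.41 for hindbrain genes. All of these medians include MS_W95. In MS_W31, MS_W75 and MS_W95, the hindbrain list summed to 0.0219, 0.0189 and 30.2 FPKM. The choroid plexus list summed to 10.9, 8.81 and 1830 FPKM there. The erythroid list summed to 31.3, 12.7 and 412 FPKM, and the astrocyte list to 640, 656 and 1167 FPKM. The cortex list was at 126, 124 and 72.4 FPKM, all below the 234 to 246 FPKM of C_W. In C_O against C_W, 7 of 12 fibroblast and meninges genes had an unadjusted p under 0.05, all higher in C_O, with a median log2 difference of 0.64, while 1.51% of all tested genes were higher with such a p. Without C_O72 and MS_W95 these were 4 of 12 genes and a median of 0.40, against 1.8% of all tested genes. All C_W libraries but only C_O15 of C_O were among the 5 deeper libraries. Col1a1, Col1a2, Dcn and Slc6a13 of this list were lower in each deeper than in each of the 7 shallower libraries. Of all tested genes, 4.31% separated by depth in either direction. The part of depth in this comparison was not tested. In the same comparison 1 of 15 pericyte and smooth muscle genes had such a p (Anpep, a peptidase of pericytes, adjusted p = 0.908 with limma), and 0 of 15 without the pair of libraries. The brains had been perfused with saline, and the erythroid list still summed to 159 to 213 FPKM in C_W, 61.3 to 240 FPKM in C_O, 12.7 to 412 FPKM in MS_W and 16.8 to 65.6 FPKM in MS_O. The part of these cells in the values of the 9 genes was not tested.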

How the data were processed

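Brain RNA of 12 mice was sequenced, and reads were processed by the authors with cutadapt 1.9, HISAT2 2.0.4 (build mm10) and StringTie 1.3.4d, per the submitters' processing notes, and with Ballgown, per the study's methods. The deposited table gives FPKM, in which the authors scaled to transcript length and mapped fragments, and unscaled estimated counts, which equal FPKM times length times a factor per library (median deviation 0.0362% in 1598 genes with a single transcript). They therefore follow coverage and are not single reads. The libraries mark strand, and the strand setting used in counting and the treatment of multiply aligned reads are not given in the sources used here.

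Differences were computed with limma 3.58.1 (R 4.3.3, lmFit and eBayes with trend) on log2(FPKM + 1), with a pseudocount of 1, in 1 fit of 4 groups to the 21393 genes whose FPKM averaged at least 0.1, with Benjamini-Hochberg adjustment over these genes. A log2 difference on this scale understates changes of low genes. The 9 genes, 15 further lists (189 genes) and tests were chosen with earlier results of these data known. Named genes were the 9, the 2 most abundant genes of a list, and up to 2 higher and 2 lower genes per comparison with an unadjusted p under 0.05 and no overlap of the groups. Values are given for those among them that bear on the vessels. Samples were grouped by the labels. The alternatives were other pseudocounts, filters and scalings, fits of 2 groups, robust eBayes, a linear model with library size, edgeR 4.0.16 and DESeq2 1.42.0 on rounded estimated counts, leaving out libraries, and, added after seeing the data, a depth term. The limma, edgeR and DESeq2 fits were tested on simulated counts with known changes. Apart from these changes, the simulated libraries had the same make-up. The simulation therefore does not bear on C_O72, MS_W95 or the genes that split by depth. Since each mouse gave 1 library, p-values rest on the spread between mice. That spread also holds differences between libraries in depth and in the hindbrain genes.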

Additional observations from a re-analysis of the deposited data

How the results depend on the processing

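No member passed an adjusted p of 0.05 in any of the 5 comparisons under any of the 25 alternatives, and the smallest adjusted p was 0.293 (Kdr in MS_W against C_W without C_O72, limma). Of 1111 alternative log2 differences of single genes, 71 had the other sign than the value with 12 libraries, and 25 of the 45 differences had 1 sign throughout. No paired analysis was possible because the mouse numbers of the labels are not shared between groups.

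Without C_O72 and MS_W95, the values of the other sign were Ocln -0.020, Pecam1 -0.0086, Abcb1a -0.015 in MS_W against C_W, the median 0.033, Cldn5 0.070, Slc2a1 0.033, Abcb1a 0.19 in MS_O against C_O, the median -0.017, Ocln -0.046, Slc2a1 -0.020, Abcb1a -0.10, Flt1 -0.017 in C_O against C_W, Pecam1 0.061, Abcb1a 0.10 in MS_O against MS_W, and Pecam1 0.16, Slc2a1 0.29, Abcb1a 0.20 in the interaction. With the depth class as a term (5 deeper against 7 shallower libraries, chosen after seeing the data), the values of the other sign were Pecam1 -0.021, Abcb1a -0.090 in MS_W against C_W, Abcb1a -0.015, Kdr -0.025 in C_O against C_W, Pecam1 0.00055, Abcb1a 0.054, Kdr 0.0080 in MS_O against MS_W, and Pecam1 0.081, Slc2a1 0.19, Abcb1a 0.069, Kdr 0.033 in the interaction. In a per-gene linear model with a library size term, the values of the other sign were Abcb1a -0.023 in MS_W against C_W, Abcb1a 0.0018 in MS_O against C_O, Abcb1a 0.031 in MS_O against MS_W, and Pecam1 0.021, Slc2a1 0.21, Abcb1a 0.024 in the interaction. After quantile normalization, the values of the other sign were Pecam1 -0.0079 in MS_W against C_W, Pecam1 -0.025 in MS_O against C_O, Pecam1 0.0078 in C_O against C_W, and Abcb1a 0.0078 in MS_O against MS_W. With libraries centred on their median, the values of the other sign were Pecam1 -0.022 in MS_O against C_O, Pecam1 0.0079 in C_O against C_W, and Abcb1a 0.014 in MS_O against MS_W. With edgeR, the value of the other sign was Abcb1a 0.0096 in MS_O against MS_W. With DESeq2, the value of the other sign was Abcb1a 0.0090 in MS_O against MS_W. In MS_W against C_W, leaving out 1 library gave Ocln from -0.020 to 0.59, Pecam1 from -0.0086 to 0.15, Abcb1a from -0.015 to 0.24. In MS_O against C_O, leaving out 1 library gave the median from -0.22 to 0.033, Cldn5 from -0.26 to 0.070, Pecam1 from -0.042 to 0.15, Slc2a1 from -0.47 to 0.033, Abcb1a from -0.13 to 0.19. In C_O against C_W, leaving out 1 library gave the median from -0.017 to 0.22, Ocln from -0.046 to 0.52, Pecam1 from -0.10 to 0.095, Slc2a1 from -0.020 to 0.48, Abcb1a from -0.10 to 0.22, Flt1 from -0.017 to 0.18. In MS_O against MS_W, leaving out 1 library gave Pecam1 from -0.099 to 0.061, Abcb1a from -0.15 to 0.10, Kdr from -0.16 to 0.022. In the interaction, leaving out 1 library gave Pecam1 from -0.13 to 0.068, Slc2a1 from -0.32 to 0.18, Abcb1a from -0.26 to 0.097. The end of the range on the other side of 0 came without C_O72 or MS_W95, except for Pecam1 in MS_O against C_O and in C_O against C_W (without C_O30) and Kdr in MS_O against MS_W (without MS_O13). The cause of these changes of sign was not tested.

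Over all tested genes, the number past the adjusted p in MS_W against C_W was 1 with limma, 121 with the 2 groups compared alone, 389 with DESeq2, 250 without C_O72 and MS_W95 and 0 with the depth class as a term. In MS_O against C_O it was 1 with limma, 172 with DESeq2 and 112 without MS_O13. In MS_O against MS_W it was 1 with limma, 79 with DESeq2 and 57 without C_O72 and MS_W95. With 3 mice a group, an exact permutation test cannot go below p = 0.1, and the intervals given with the results set what could be seen.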
